A study of Mus musculus with 8 samples.

Results

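Bdnf, a second neurotrophin gene and 5 of their receptor genes were followed in RNA-seq libraries of mouse medial prefrontal cortex (mPFC). The 7 genes were Bdnf and Ntf3 (ligands), Ntrk2, Ntrk3 and Ngfr (receptors), and Sort1 and Sorcs3 (sortilin-family receptors). They were taken by gene name from a table of read counts for 54532 genes, and all 7 were among the 16745 genes that passed the filter on low counts. The libraries came from adult male C57BL/6 mice: 4 from a retrieval group and 4 from a non-retrieval group, in a study of memory for a place paired with methamphetamine (METH), a psychostimulant. Conditioned place preference (CPP) measures how much longer an animal stays in a drug-paired compartment. Each library held mPFC RNA pooled from 2 to 3 mice and collected 1 h after the CPP test ended, in both groups. The labels give no other treatment of either group and do not say how non-retrieval mice were handled, so handling and exposure to the apparatus cannot be told apart from retrieval.

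Libraries held 25013503 to 29547978 reads counted in genes. The tissue label was checked against Slc17a7, the vesicular glutamate transporter of cortical excitatory neurons, which was present in every library at 1845 to 2132 CPM (counts per 1000000 reads after TMM scaling) in retrieval and 1884 to 2197 CPM in non-retrieval. Chat, which marks cholinergic neurons, had 3 to 12 reads per library and was below the filter. In retrieval replicate 2, markers of striatal projection neurons averaged 5.11 on the log2 CPM scale, against 4.16 to 4.39 in the other 7 libraries. The Bdnf result and some others are therefore also given without it.

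Neurotrophins are made as precursors that are cut to mature dimers. Mature BDNF binds TrkB (the product of Ntrk2) and mature NT-3 binds TrkC (Ntrk3), receptor tyrosine kinases that signal through Ras and ERK kinases, PI3 kinase and phospholipase C gamma. The precursors bind p75NTR (Ngfr) together with sortilin-family receptors such as sortilin (Sort1), which also sorts BDNF within the cell. In cortex, Bdnf is made mainly by excitatory neurons, is transcribed in response to activity from several alternative promoters, and supports synaptic plasticity and memory.

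The Bdnf gene (ENSMUSG00000048482) lies on chromosome 2 from 109674700 to 109727007 on the plus strand of GRCm38, and its counts were summed over all exons, so the start site in use was not measured. RefSeq (GRCm38.p6) gives 7 promoter windows for it, each from 250 bases before to 50 bases after a start site. The following pair is shown because it holds the CRE-like letters TCACGTNA (searched on both strands), which occur in 1.73% of 32851 promoter windows. Capitals mark those letters and, in the second window, the E-box CATATG. The first window, at the 5' end of the gene (chr2:109674450-109674749), has the CRE-like letters 78 bases before the start. The second (chr2:109692186-109692485), known as promoter IV, has them 38 bases and CATATG 49 bases before its start, which lies 17736 bases into the gene. Elements at these places in promoter IV were described in rodent neurons as binding sites of CREB and of USF factors.
Bdnf, 5' end: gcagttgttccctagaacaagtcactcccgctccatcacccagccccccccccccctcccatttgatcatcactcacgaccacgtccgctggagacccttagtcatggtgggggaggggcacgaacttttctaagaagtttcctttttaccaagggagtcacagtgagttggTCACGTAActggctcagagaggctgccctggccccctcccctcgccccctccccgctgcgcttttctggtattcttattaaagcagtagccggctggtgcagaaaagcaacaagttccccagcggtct
Bdnf, promoter IV: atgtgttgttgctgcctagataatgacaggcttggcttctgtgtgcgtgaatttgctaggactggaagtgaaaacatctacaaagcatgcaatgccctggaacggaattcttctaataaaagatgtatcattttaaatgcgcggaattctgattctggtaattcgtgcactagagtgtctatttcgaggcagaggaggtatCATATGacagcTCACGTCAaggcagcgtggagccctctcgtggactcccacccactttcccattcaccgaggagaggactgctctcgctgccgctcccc
The full CRE TGACGTCA (1.79% of all windows), the E-box CACGTG (7.15%), the EGR letters GCGNGGGCG (5.55%) and the NR4A letters AAAGGTCA (1.51%) were in none of the 7 Bdnf windows on either strand, and the AP-1 letters TGANTCA (7.81%) were in 1. CATATG was in 2 of the 7 and in 3.91% of all windows. These are matches of letters, not measured sites. The other 5 windows on hand belong to Ntf3, Ngfr, Ntrk2 and Sorcs3, and of the letters searched they hold CACGTG alone, in 1 Ntf3 window.

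Comparing retrieval with non-retrieval asked which of these genes differed between the groups. Bdnf was higher in retrieval, and none of the other 6 genes passed the test. Bdnf had 47.3, 41.5, 38.6 and 51.3 CPM in retrieval replicates 1 to 4, against 28.5, 30.3, 26.3 and 28.4 CPM in non-retrieval replicates 1 to 4. The groups did not overlap, and the retrieval libraries were more spread out (SD 5.69 against 1.63 CPM, n = 4 each). Its mean CPM was 57.3% higher in retrieval, and the fitted fold was 1.57 (95% interval 1.38 to 1.79), or 0.65 on the log2 scale (SE 0.09). It passed at an adjusted p of 0.000339 (edgeR quasi-likelihood test, Benjamini-Hochberg adjustment over all tested genes, threshold 0.05), and Bdnf ranked 54 of 16745 by p. An antisense gene that overlaps its first part, Gm45346, had at most 3 reads in retrieval and at most 10 in non-retrieval, beside 1008 to 1416 Bdnf reads in retrieval and 739 to 845 in non-retrieval. The values pool all Bdnf transcripts and all cells of bulk tissue, in which more cells of a type and more RNA per cell cannot be told apart.

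Thus 1 of the 7 genes was called. Of all tested genes 4.57% were called, 3.67% higher and 0.902% lower in retrieval. Groups that did not overlap were seen for 1 of the 7 genes and for 11.1% of tested genes. An unadjusted p under 0.05 was reached by 2 of the 7, Bdnf and Ntrk2, and by 18.5% of tested genes.

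**Figure D1:**
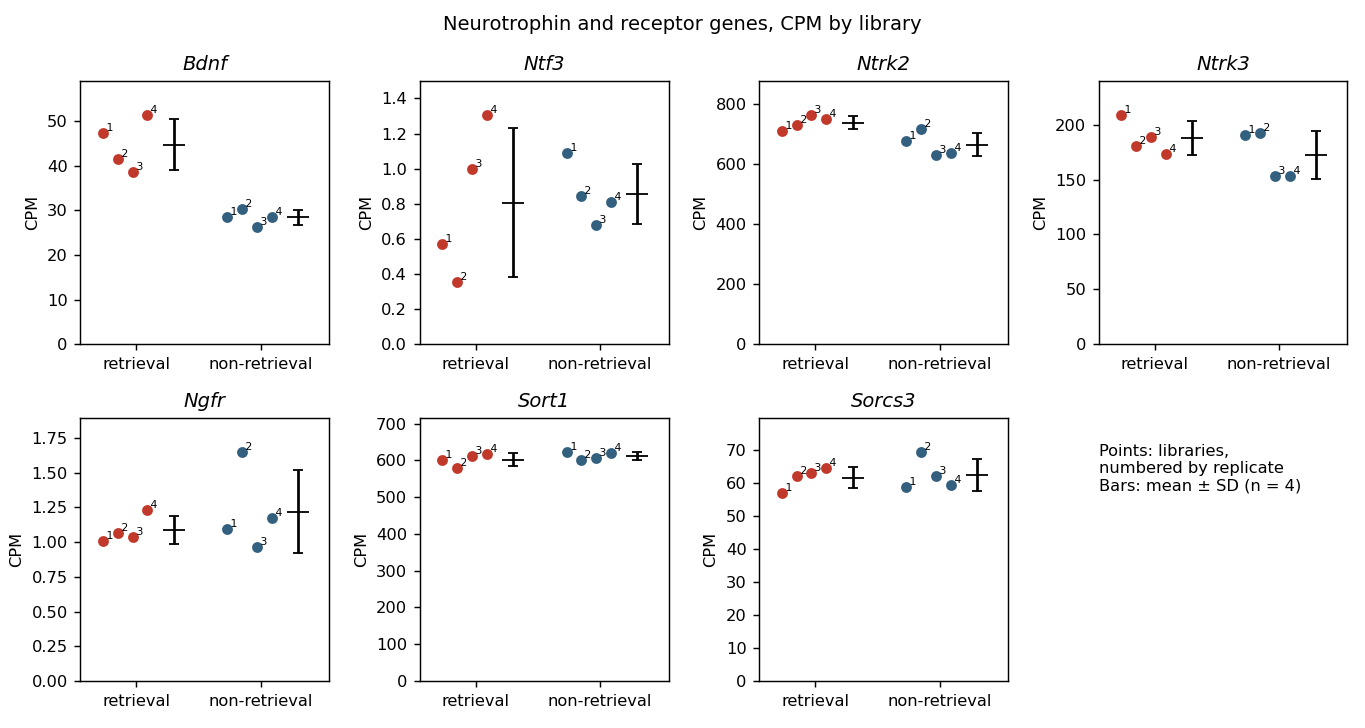
CPM of each gene in each library (points, numbered by replicate), retrieval left of non-retrieval, with the mean and SD (n = 4) beside them; each panel has its own linear axis from 0. Bdnf is the gene whose groups do not overlap, with 38.6 to 51.3 CPM in retrieval and 26.3 to 30.3 CPM in non-retrieval.

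Ntf3 (ENSMUSG00000049107, chromosome 6 from 126101412 to 126166910, minus strand), the NT-3 gene, was close to the detection limit. It had 17, 10, 26 and 36 reads in retrieval replicates 1 to 4, against 31, 21, 19 and 24 reads in non-retrieval replicates 1 to 4. In CPM it averaged 0.807 ± 0.425 in retrieval and 0.855 ± 0.173 in non-retrieval (SD, n = 4 each). Both the highest and the lowest library were retrieval libraries, replicates 4 and 2. Its log2 fold change was -0.09 (SE 0.35; edgeR adjusted p = 0.920), with a 95% interval for the fold of 0.563 to 1.56, which leaves a wide range of differences in either direction.

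Ntrk2 (ENSMUSG00000055254, chromosome 13 from 58806569 to 59133970, plus strand) encodes TrkB, both the full-length kinase of neurons and a truncated form abundant in astrocytes, which gene counts do not separate. It had 711, 730.5, 762 and 750.4 CPM in retrieval replicates 1 to 4, against 677, 715, 631 and 637 CPM in non-retrieval replicates 1 to 4. The 3 highest libraries were retrieval libraries, but non-retrieval replicate 2 lay above retrieval replicate 1. The fold was 1.11 (95% interval 1.02 to 1.21, not adjusted for the number of genes), with a log2 fold change of 0.15 (SE 0.06) that did not pass (unadjusted p = 0.0212, edgeR adjusted p = 0.177). After each library was corrected for trends with gene length and GC content, the log2 fold change was -0.01 (edgeR adjusted p = 0.927). None of 9 astrocyte markers was called, 8 had a positive log2 fold change, and their mean log2 CPM ran from 7.26 to 7.51 in retrieval and 7.28 to 7.34 in non-retrieval. In a fit that included this astrocyte level, the log2 fold change of Ntrk2 was 0.12 (edgeR adjusted p = 0.337).

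Ntrk3 (ENSMUSG00000059146, chromosome 7 from 78175959 to 78738012, minus strand), the TrkC gene, had 208, 180.4, 189 and 173 CPM in retrieval replicates 1 to 4, against 191, 192, 153 and 154 CPM in non-retrieval replicates 1 to 4. The non-retrieval libraries split into a higher and a lower pair, and the groups overlapped. The log2 fold change of 0.12 (SE 0.08; edgeR adjusted p = 0.469) had the opposite sign, -0.06, with the length and GC offset. It was 0.23 with the astrocyte level as a covariate (edgeR adjusted p = 0.149), 0.20 with the myelin level (edgeR adjusted p = 0.541), and 0.07 without non-retrieval replicate 3 or 4. Without retrieval replicate 1 it was 0.08, and none of these fits passed. Ntrk3 also shares its locus with an antisense gene, Gm9885, with 105 to 154 reads in retrieval and 131 to 176 in non-retrieval, small beside the 4773 to 6194 Ntrk3 reads in retrieval and 4306 to 5413 in non-retrieval.

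Ngfr (ENSMUSG00000000120, chromosome 11 from 95568818 to 95587735, minus strand), the p75NTR gene, had 27 to 34 reads per library in retrieval and 27 to 41 in non-retrieval. Its mean was 1.08 ± 0.10 CPM in retrieval and 1.22 ± 0.299 CPM in non-retrieval (SD, n = 4 each). The highest value, 1.65 CPM, was that of non-retrieval replicate 2, and without that library the log2 fold change moved to 0.01 in place of -0.16 (SE 0.24; edgeR adjusted p = 0.773). The 95% interval for the fold, 0.626 to 1.28, is wide.

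Both sortilin-family genes were nearly level between the groups. Sort1 (ENSMUSG00000068747, chromosome 3 from 108284082 to 108361511, plus strand) had 601, 579, 613 and 616 CPM in retrieval replicates 1 to 4, against 623, 601, 606 and 619.6 CPM in non-retrieval replicates 1 to 4. The groups overlapped, and the log2 fold change was -0.02 (SE 0.05; edgeR adjusted p = 0.854), with a fold between 0.909 and 1.06 (95% interval). Sorcs3 (ENSMUSG00000063434, chromosome 19 from 48206025 to 48805505, plus strand), a postsynaptic relative of sortilin, had 56.9, 62.0, 63.0 and 64.5 CPM in retrieval replicates 1 to 4, against 58.7, 69.3, 62.2 and 59.2 CPM in non-retrieval replicates 1 to 4. Its log2 fold change was -0.02 (SE 0.07; edgeR adjusted p = 0.926), with a fold between 0.893 and 1.09 (95% interval). For both genes these unadjusted intervals lie below that of the Bdnf fold, 1.38 to 1.79. So do those of Ntrk2, Ntrk3 and Ngfr (upper ends 1.21, 1.23 and 1.28), whereas that of Ntf3, up to 1.56, overlaps it.

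**Figure D2:**
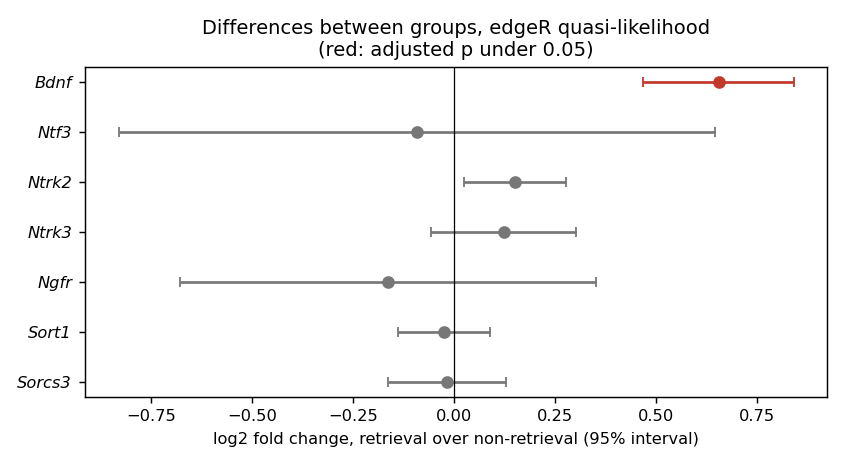
Log2 fold change of retrieval over non-retrieval for each gene (points) with its 95% interval (bars), from the edgeR fit on 4 against 4 libraries; red marks an adjusted p under 0.05. Bdnf stands at 0.65, the intervals of Sort1 and Sorcs3 are narrow around 0, and those of Ntf3 and Ngfr are wide.

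Per length of the gene model, the receptor genes Sort1, Ntrk2 and Sorcs3 lay above both ligand genes in every library, whereas the receptor gene Ngfr had the lowest mean of the 7 in both groups. In retrieval the mean levels were 79.6 CPM per kb for Sort1, 38.3 for Ntrk2, 10.9 for Sorcs3, 7.19 for Bdnf, 6.22 for Ntrk3, 0.471 for Ntf3 and 0.315 for Ngfr. In non-retrieval they were 80.9 CPM per kb for Sort1, 34.5 for Ntrk2, 11.1 for Sorcs3, 4.57 for Bdnf, 5.72 for Ntrk3, 0.499 for Ntf3 and 0.354 for Ngfr. Sort1, Ntrk2 and Sorcs3 ranked in this order above the rest in every library, whereas Bdnf and Ntrk3 were neighbours whose order differed. Bdnf lay above Ntrk3 in 3 of 4 retrieval libraries and in 0 of 4 non-retrieval libraries. Ntf3 and Ngfr did not differ beyond their spread in retrieval (SD 0.248 and 0.029 CPM per kb), where Ngfr was above Ntf3 in 1 of 4 libraries. In non-retrieval (SD 0.101 and 0.087 CPM per kb) Ngfr was above Ntf3 in 0 of 4 libraries. The lengths count every exon of the gene (30170 bases for Ntrk3, 19292 for Ntrk2, 6217 for Bdnf), which lowers the level of genes with many long alternative exons, and GENCODE M21 gives Sorcs3 a longer model (7130 bases) than the deposited 5634.

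**Figure D3:**
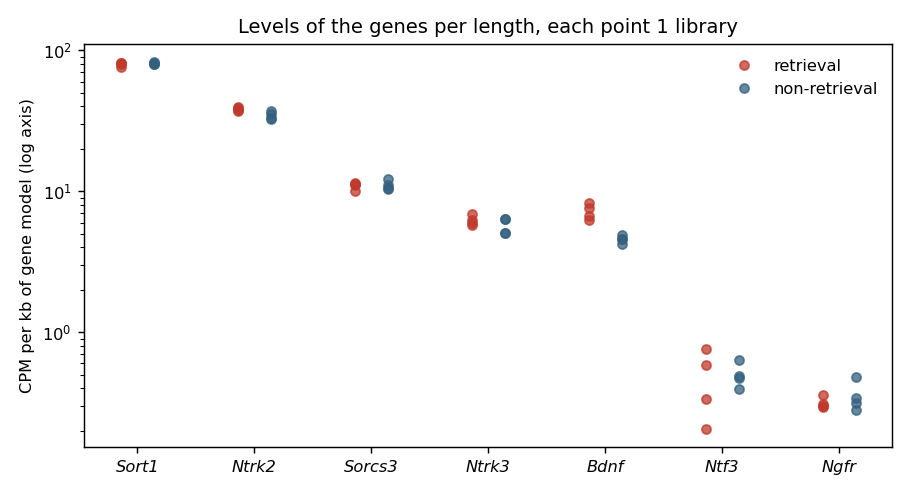
Level of each gene in CPM per kb of gene model on a log axis, 1 point per library, retrieval left of non-retrieval, with genes ordered by their mean in non-retrieval. Bdnf has 6.21 to 8.25 CPM per kb in retrieval and 4.24 to 4.88 in non-retrieval, and the Ntrk3 libraries lie above the non-retrieval Bdnf values.

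Ratios of reads within a library do not depend on scaling between libraries and are given as a description. For every 1000 reads of Ntrk2, the TrkB receptor, there were 66.6, 56.8, 50.6 and 68.3 reads of its ligand Bdnf in retrieval replicates 1 to 4, against 42.1, 42.4, 41.7 and 44.6 in non-retrieval replicates 1 to 4. The groups did not overlap, and the mean log2 ratio was 0.49 higher in retrieval. The log2 ratio of Ntrk2 to Ntrk3 was 1.98 ± 0.148 in retrieval and 1.95 ± 0.110 in non-retrieval, and that of Sort1 to Sorcs3 was 3.29 ± 0.077 in retrieval and 3.30 ± 0.133 in non-retrieval (SD, n = 4 each), with overlapping groups in both cases.

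Genes around neurotrophin signalling were followed in 6 lists, in which 16 genes rose and 0 fell. Of all tested genes, 3.67% were called higher and 0.902% lower in retrieval. The lists were written with earlier results of these data known, so their counts are a description. Each list's median log2 fold change is to be read beside that of all tested genes, -0.01. Of 6 further ligands, receptors and sortilin relatives, 4 were tested and none was called, with 0 at an unadjusted p under 0.05 and a median of 0.02. Sorcs2, a relative of sortilin, had the smallest p, with 62.9 ± 3.99 CPM in retrieval and 58.7 ± 3.19 CPM in non-retrieval (SD, n = 4 each; edgeR adjusted p = 0.457). Sorcs1, another relative, stood at 44.8 ± 4.53 CPM in retrieval and 46.6 ± 2.23 CPM in non-retrieval (SD, n = 4 each; edgeR adjusted p = 0.746). Ntf5, a further neurotrophin gene, had 1 to 10 reads in retrieval and 2 to 10 in non-retrieval. It was below the filter and was chosen for mention after its values were seen.

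Of 11 tested genes for processing and sorting of the precursors, 2 rose and 9 did not pass (median log2 fold change 0.05). Pcsk1, a prohormone convertase of regulated secretory granules, had 78.4, 62.3, 66.1 and 75.1 CPM in retrieval replicates 1 to 4, against 55.1, 46.7, 44.5 and 51.4 CPM in non-retrieval replicates 1 to 4. The groups did not overlap, and the difference of 0.51 on the log2 scale (SE 0.08) passed at an edgeR adjusted p of 0.00191. Plat, the tissue plasminogen activator, which generates the plasmin that can cleave the BDNF precursor outside the cell, rose to 27.6 ± 2.79 CPM in retrieval, against 20.8 ± 1.26 CPM in non-retrieval (SD, n = 4 each; log2 fold change 0.41, SE 0.09; edgeR adjusted p = 0.0122). The call of Plat ended without retrieval replicate 4 (edgeR adjusted p = 0.0516). Plg, the gene of the plasmin precursor, had 0 to 5 reads in retrieval and 0 to 1 in non-retrieval, below the filter. It was chosen for mention after its values were seen.

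Of 40 adaptors and kinases that act below Trk receptors, 4 rose and 36 did not pass (median 0.06). Irs2, an adaptor best known from insulin and IGF signalling, had 119, 127, 114 and 146 CPM in retrieval replicates 1 to 4, against 62.4, 63.1, 63.0 and 58.6 CPM in non-retrieval replicates 1 to 4 (log2 fold change 1.04, SE 0.08; edgeR adjusted p = 2.91e-07). The groups of Irs2 were widely apart, and its call held in every alternative run. Shc3 (log2 fold change 0.38), the neuronal Shc adaptor, Crkl (0.30) and Gab1 (0.39), a docking protein, also rose, at edgeR adjusted p of 0.0151, 0.0181 and 0.0399. Shc3 lost its call without retrieval replicate 3 or 4 or non-retrieval replicate 4 (edgeR adjusted p 0.0538 to 0.0631), and Crkl without retrieval replicate 4 or non-retrieval replicate 3 or 4 (0.0509 to 0.0728). Gab1 lost its call without retrieval replicate 2 or 4 or any 1 non-retrieval library (edgeR adjusted p 0.0626 to 0.138), and also with upper-quartile scaling, limma-voom or the striatal marker level as a covariate (adjusted p 0.0517 to 0.122).

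None of 16 tested partners and processing enzymes of p75NTR was called, with 2 at an unadjusted p under 0.05 (median 0.03). Adam17, a sheddase that cleaves p75NTR, had 15.8 ± 0.613 CPM in retrieval and 13.1 ± 0.676 CPM in non-retrieval (SD, n = 4 each), and Nradd, a p75NTR homologue, 0.904 ± 0.198 CPM in retrieval and 0.568 ± 0.121 CPM in non-retrieval. Their edgeR adjusted p were 0.0659 and 0.229, and DESeq2 called Adam17 (adjusted p = 0.0381). Of 18 factors known to act at Bdnf promoters, Bhlhe40 and Srf rose and 16 did not pass (median 0.11). Bhlhe40, a basic helix-loop-helix repressor, averaged 192 ± 17.2 CPM in retrieval and 118 ± 11.6 CPM in non-retrieval (SD, n = 4 each; log2 fold change 0.70, SE 0.08; edgeR adjusted p = 4.30e-05). Srf, the serum response factor, averaged 77.1 ± 7.67 CPM in retrieval and 56.0 ± 6.75 CPM in non-retrieval (SD, n = 4 each; log2 fold change 0.46, SE 0.09; edgeR adjusted p = 0.00570).

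Among 16 genes known to be induced by BDNF, 8 rose and 8 did not pass (median 0.27), beside 3.67% of all tested genes called higher. The list was written with earlier results of these data known, so this count is a description, not a test. Most of these genes also respond to neuronal activity by other routes, so the list is not a readout of BDNF alone. The 6 with the smallest p were the early-response transcription factor genes Egr1 (log2 fold change 1.72, SE 0.10), Egr2 (3.74, SE 0.23) and Fos (2.21, SE 0.16), the synaptic genes Homer1 (0.88, SE 0.08) and Arc (2.15, SE 0.21), and Dusp6 (0.79, SE 0.08), a phosphatase of ERK kinases. Dusp6 had 104, 89.9, 97.2 and 100.2 CPM in retrieval replicates 1 to 4, against 53.7, 53.1, 53.5 and 65.7 CPM in non-retrieval replicates 1 to 4 (edgeR adjusted p = 8.22e-06). The other two calls, given after their values were seen, were Nptx2 (0.49; edgeR adjusted p = 0.0224) and Spry2 (0.27; edgeR adjusted p = 0.0251). Nptx2 lost its call without retrieval replicate 4 or non-retrieval replicate 3 (edgeR adjusted p 0.0758 to 0.0810), and Spry2 without retrieval replicate 3 or 4 or non-retrieval replicate 1, 2 or 3 (0.0534 to 0.0935).

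**Figure D4:**
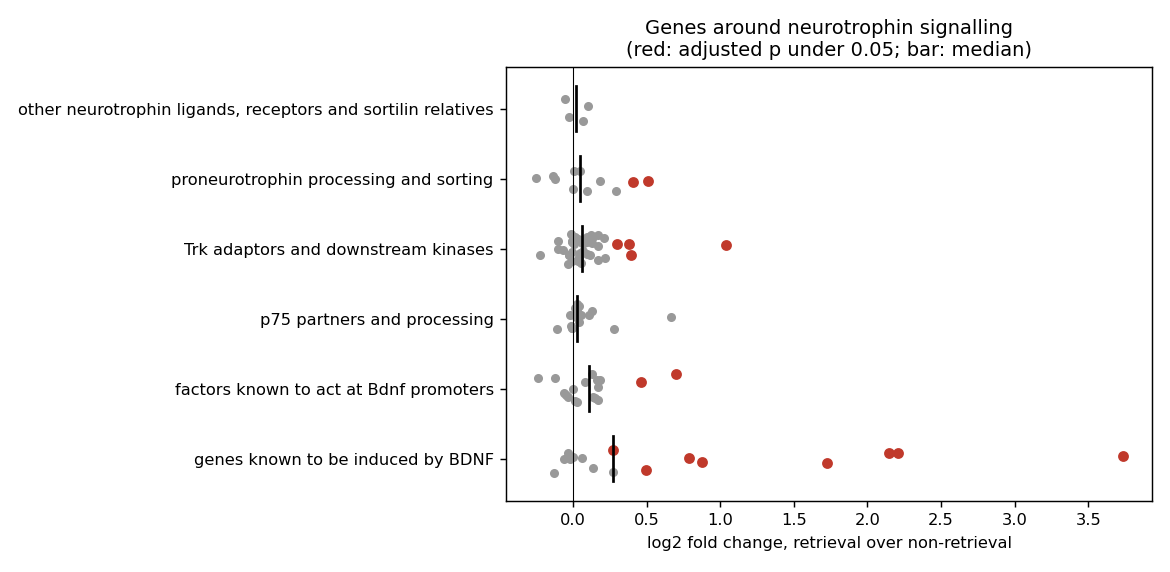
Log2 fold change of retrieval over non-retrieval for each tested gene of the 6 lists (points, spread vertically for visibility), with called genes in red and the list median as a bar. Most points lie near 0, and the rises of over 1 are Irs2 among the Trk adaptors and Egr1, Egr2, Fos and Arc among genes known to be induced by BDNF.

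Levels of markers of other cell types were set beside the Bdnf result. None of 6 excitatory neuron markers was called, and their mean log2 CPM was 8.41 to 8.49 in retrieval and 8.40 to 8.51 in non-retrieval. Of 6 GABAergic neuron markers 1 fell, Pvalb (log2 fold change -0.41, edgeR adjusted p = 0.0355), and their mean log2 CPM was 6.67 to 6.83 in retrieval and 6.77 to 6.91 in non-retrieval. In each of 4 further lists 1 marker rose: Slc2a1 of 5 endothelial markers (0.53, edgeR adjusted p = 0.000774), Gpr17 of 3 oligodendrocyte precursor markers (0.40, 0.0110), Myh11 of 5 mural markers (0.35, 0.0401) and Col1a2 of 4 fibroblast markers (0.44, 0.0271). Log2 fold changes were positive for 3 of 5 endothelial and 2 of 5 mural markers, and for all oligodendrocyte precursor and fibroblast markers. The mean log2 CPM of each of these 4 lists overlapped between the groups. Of 10 striatal projection neuron markers 1 fell, Scn4b (log2 fold change -0.47, edgeR adjusted p = 0.0356), while 8 had positive log2 fold changes. All of these called markers, Pvalb and Scn4b included, were named after their values were seen. Their part in the Bdnf result was not tested. Of 12 myelin markers 7 rose, and the other 5 also had positive log2 fold changes (median 0.40). Their mean log2 CPM was 6.95 to 7.41 in retrieval and 6.72 to 6.92 in non-retrieval, and their summed level was 4176 to 6051 CPM in retrieval and 3444 to 4062 CPM in non-retrieval, without overlap. When the myelin mean entered the fit, the log2 fold change of Bdnf was 0.55 (95% interval 0.27 to 0.83) and its call ended (edgeR adjusted p = 0.0705), while the number of genes called overall fell to 120, against 766 without the covariate. Since the myelin levels of the groups do not overlap, the covariate and the group are partly the same variable and cannot be told apart here. Retrieval replicate 3, the retrieval library with the lowest myelin mean (6.95), had 38.6 CPM of Bdnf. Non-retrieval replicate 2, the non-retrieval library with the highest (6.92), had 30.3 CPM. These were also the lowest Bdnf value in retrieval and the highest in non-retrieval. They are 1 library per group, and whether Bdnf differs at equal myelin levels was not tested.

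Leaving out any 1 library kept the Bdnf call, with a log2 fold change of 0.58 to 0.72 and edgeR adjusted p of 0.000206 to 0.00352. Without retrieval replicate 2, the library with the high striatal markers, it was 0.69. With the myelin covariate and without that library it was 0.46 (edgeR adjusted p = 0.194). The calls of Plat, Shc3, Crkl, Gab1, Srf, Nptx2 and Spry2 also ended with the myelin covariate (edgeR adjusted p 0.120 to 0.988), whereas those of Pcsk1, Irs2, Bhlhe40, Egr1, Egr2, Fos, Homer1, Dusp6 and Arc did not; Pcsk1 lost its call when retrieval replicate 2 was left out as well (edgeR adjusted p = 0.0763). With the astrocyte level as a covariate, Plat, Shc3, Gab1, Nptx2 and Spry2 lost theirs (edgeR adjusted p 0.0814 to 0.270).

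**Figure D5:**
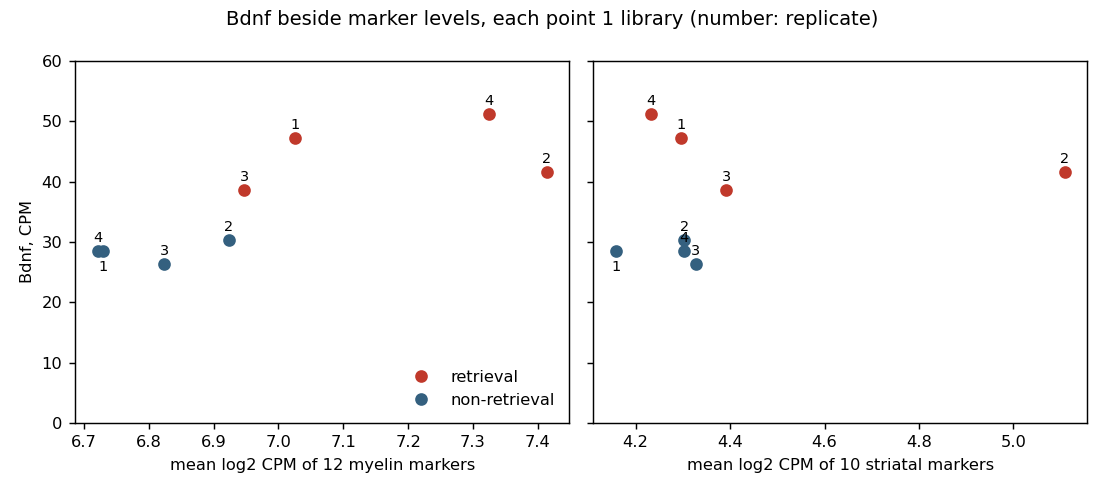
Bdnf in CPM (from 0) against the mean log2 CPM of 12 myelin markers (left) and 10 striatal projection neuron markers (right), 1 point per library with its replicate number. Retrieval libraries lie above non-retrieval libraries on the Bdnf axis and to their right on the myelin axis, and retrieval replicate 2 stands apart at 5.11 on the striatal axis.

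The genes whose log2 CPM followed that of Bdnf most closely over the 8 libraries, among 13247 other protein-coding genes with a mean of at least 1 CPM, were Ccdc6 (Pearson r 0.979), Spred2 (0.978), Spry4 (0.975), Etv3 (0.975) and Mapk1ip1l (0.973). Spred2 and Spry4 encode feedback inhibitors of Ras and ERK signalling, and Etv3 an ETS-family repressor. All 5 were higher in retrieval, with log2 fold changes of 0.34 to 0.90. With the myelin covariate Spry4 kept its call (edgeR adjusted p = 0.00622), whereas Ccdc6, Spred2, Etv3 and Mapk1ip1l lost theirs (edgeR adjusted p 0.107 to 0.328). Spry4 had 26.4, 25.7, 22.8 and 28.0 CPM in retrieval replicates 1 to 4, against 13.0, 15.2, 13.6 and 13.5 CPM in non-retrieval replicates 1 to 4, so that its lowest retrieval library, replicate 3, was also the lowest for Bdnf. With each group's mean subtracted, the closest were Fam162a (0.954), Med31 (0.949), Bbs10 (0.938), Ntng1 (0.930) and Galnt7 (0.928). Of these, Bbs10 was called lower in retrieval (log2 fold change -0.65, edgeR adjusted p = 0.0338), a call lost in 10 of 21 alternatives. Fam162a, Med31 and Ntng1 had negative log2 fold changes and Galnt7 a positive one (0.37), and none of these was called. All points are the same 8 libraries, and the first 5 genes share the difference between the groups, so these r values are a description.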

How the data were processed

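RNA-seq of pooled mouse mPFC was deposited as 1 table of raw counts (unscaled reads summed over the exons of each gene). Per the submitters' processing notes, the authors used HISAT2 2.0.5, featureCounts 1.5.0-p3 and the build GRCm38. Neither the annotation release nor the strand setting is given in the sources used here. Antisense reads could therefore not be separated. The deposited gene length equalled the summed exons of GENCODE M21 for 6 of the 7 genes (Sorcs3: 5634 against 7130 bases).

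Genes were filtered with filterByExpr, scaled with TMM, and compared with the two-sided quasi-likelihood test of edgeR 4.0.16 (R 4.3.3), with Benjamini-Hochberg adjustment over 16745 genes and a threshold of 0.05. Each pool counted as 1 replicate, so the tests weighed group differences against the spread between pools, not between single mice. CPM used TMM-scaled totals, and a prior count of 2 entered log2 CPM. Alternatives were other scaling factors and filters, DESeq2 1.42.0, limma-voom (limma 3.58.1), the replicate number as a block, marker levels as covariates, a loess offset (span 0.5) for gene length and GC content (available for 16727 genes), and leaving out each library. The astrocyte covariate, and the myelin covariate without retrieval replicate 2, were chosen after seeing the data.

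The 7 genes and the gene lists were chosen with earlier results of these data known. The text names the 7 genes, up to 6 called genes per list with the smallest p (or the 2 smallest p where none was called), and the 5 genes most like Bdnf by each measure. Of the 7 genes, 5 had a promoter window in the RefSeq table. Protein sequences and transcript isoforms were not analysed here.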

Additional observations from a re-analysis of the deposited data

Results flagged for a closer look

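Among 74 groups of 4 libraries (37 named genes in 2 groups), 5 held a library far from the other 3, where chance gives about 1 in 20 (3.7). None of the 7 neurotrophin and receptor genes was among them. Egr2 stood at 41.2 CPM in retrieval replicate 4, against 30.6 to 31.9 CPM in the other retrieval libraries. In non-retrieval replicate 4, Irs2 stood at 58.6 CPM against 62.4 to 63.1 CPM in the others of its group, Gab1 at 27.35 CPM against 30.26 to 30.85 CPM, and Dusp6 at 65.7 CPM against 53.1 to 53.7 CPM. Med31 stood at 7.77 CPM in non-retrieval replicate 3, against 8.78 to 8.85 CPM in the others of its group.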

How the results depend on the processing

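The log2 fold change of Bdnf (0.65) kept its direction in all 21 alternatives and its call in 19. The call ended with the myelin covariate (0.55) and with that covariate without retrieval replicate 2 (0.46), where 0 of the 7 genes were called, against 1 otherwise. Genes called overall numbered 766. They were 1381 with the length and GC offset (54.1% of them higher, against 80.3%), 120 with the myelin covariate, 78 with that covariate without retrieval replicate 2, and 330 to 1360 when 1 library was left out (1360, 420 and 397 for the omission of retrieval replicate 1, 3 or 4, and 331 and 330 for that of non-retrieval replicate 3 or 4). With the replicate number as a block, 1791 genes were called, Bdnf stood at 0.65 and Ntrk2 at 0.15 (edgeR adjusted p = 0.0502), and Adam17 was called (edgeR adjusted p = 0.0361). The 1791 genes included all 766 of the main fit. The labels do not say whether the numbers pair the libraries, so the main fit left them out. Correlations of deviations of same-numbered libraries were 0.221, 0.085, 0.0268 and 0.0996, and every library correlated best with its own number. These values do not settle whether the numbers mark pairs.

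Signs of uncalled values turned as follows, and the cause was not tested. With the myelin covariate, Ntf3 was 0.13, Sort1 0.018, Sorcs2 -0.075, Sorcs1 0.019 and the called Gab1 -0.0065; without retrieval replicate 2 as well, Sort1 was 0.0014 and Sorcs2 -0.081. With the length and GC offset, Ntrk2 was -0.0090, Ntrk3 -0.059 and Sorcs2 -0.023. Ntf3 was 0.23 with the striatal covariate and Sorcs1 0.056 with the astrocyte covariate. With 1 library left out, Ntf3 ran from -0.43 to 0.15, Ngfr from -0.26 to 0.0086 and Sorcs3 from -0.043 to 0.037. The sign of Ntf3 turned without retrieval replicate 1, retrieval replicate 2 or non-retrieval replicate 1. Ntf3 and Ngfr had 10 to 41 reads per library.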
